A study of Mus musculus with 35 samples.

Results

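The response of cytotoxic T lymphocytes (CTLs) to interleukin-2 (IL-2) at pH 7 was taken from 10 of the 35 RNA-seq libraries of a study of extracellular acidity. Members were chosen by their labels: 5 libraries came from CTLs kept at pH 7 for 24 h with 200 IU/mL murine IL-2 and 5 from the same culture without IL-2. Each pair carried 1 of the replicate numbers 1 to 5. The other 25 libraries were 5 of cells at the start of the culture (0 h) and 5 each at pH 7.4 and pH 6.6 with and without the same dose of IL-2. All cells were murine CD8+ T cells of the OT-I strain, whose T cells carry 1 transgenic receptor for an ovalbumin peptide, and the labels give neither age nor sex. In every group they had been primed through CD3 and CD28 and expanded in IL-2 before the experiment. The cultures without IL-2 had thus lost a cytokine in which the cells had grown, and those with IL-2 had kept it. The medium was acidified and low in glucose. Dead cells were removed by density centrifugation before RNA was extracted, so the libraries should hold mainly RNA of cells that had stayed alive. How many cells survived in each culture is not known from these data, and a part of survival in the results was not tested.

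IL-2 binds a receptor of an alpha chain (CD25, Il2ra), a beta chain (Il2rb) and the common gamma chain (Il2rg). The beta and gamma chains carry the kinases JAK1 and JAK3, which phosphorylate STAT5. STAT5 is a transcription factor that drives survival genes, cytotoxic genes and its own inhibitors of the SOCS family. The same receptor feeds the PI3K and mTORC1 pathway and raises the transcription factor MYC, which together support ribosome production, nutrient uptake, lipid synthesis and division. In CTLs, IL-2 is known to sustain the effector state at the expense of genes of memory and of homing to lymph nodes.

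The 10 libraries held 22210451 to 34033340 reads on genes, and the deepest was replicate 2 without IL-2. Reads outside annotated genes made up 8.36% to 11.1% of the table without IL-2 and 5.05% to 5.95% with it, and the part of this difference in the results was not tested. Summed expression of 9 CD8 T cell markers was 4344 to 4752 CPM (a gene's reads relative to the scaled total of its library) without IL-2 and 4333 to 4654 CPM with it. Of these 9 markers 1 was higher by the edgeR test, Cd8a (mean 978 to 1401 CPM), and 4 were lower, Trac (632 to 403 CPM), Cd2, Cd3d and Cd8b1. Lyz2, Csf1r, Ms4a1 and Pax5, defining genes of myeloid and B cells, were at 0 in all 10 libraries. Of the B cell list, summed at 400.2 to 627 CPM without IL-2 and 74.2 to 190 CPM with it, nearly all was Ighm, the heavy chain gene, at a mean of 513 CPM and 115 CPM. Cd79b of the B cell list went the other way, at a mean of 1.32 CPM and 3.04 CPM. The list of CD4 and regulatory T cells fell from 143 to 163 CPM to 40.0 to 51.3 CPM, and most of this fall was Ikzf2 (mean 119.9 to 14.6 CPM). Cd4 (0.164 to 1.79 CPM) and Foxp3 (0.417 to 0.786 CPM) of that list were higher. The NK cell list rose from 176 to 191 CPM to 584 to 619 CPM, mostly through Eomes (mean 139 to 541 CPM). Klrb1c of that list went from 35.5 to 49.1 CPM and Tyrobp from 1.09 to 0.754 CPM. The myeloid list (26.1 to 31.2 CPM and 10.3 to 18.2 CPM) and the dendritic list (20.8 to 32.1 CPM and 15.5 to 36.6 CPM) made up little. Members of the dendritic list moved both ways: H2-Aa (1.05 to 11.2 CPM) and H2-Eb1 (0.370 to 2.77 CPM) were higher and Flt3 (3.61 to 0.114 CPM), Itgax (20.2 to 6.70 CPM) and Zbtb46 lower. Clec9a and Siglech of the dendritic list were at 0, and the red cell and platelet list reached 0.0736 CPM at most. The part of these lists in other results was not tested. In bulk samples, fewer cells of a type and less RNA per cell cannot be told apart. Replicate 1 with IL-2 stood apart from the other 4 for several genes named below, which is given beside them.

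IL-2 changed most of the transcriptome at pH 7. Of 13819 genes with enough reads to test, 10667 (77.2%) passed an adjusted p of 0.05 in edgeR's quasi-likelihood test, which held the replicate number as a block and the Benjamini-Hochberg adjustment over all genes. Of these, 5202 (37.6%) were higher and 5465 (39.5%) lower with IL-2. The median log2 fold change over all genes tested was -0.04, and 4920 of the genes that passed differed by at least 1 on the log2 scale, 2397 of them upwards and 2523 downwards. For 4435 genes (32.1%) every library with IL-2 lay above every library without it, and for 4475 (32.4%) every one lay below. Against this background a count of members that changed says little by itself, and the sizes and the levels carry the description that follows. When libraries were scaled by total count alone, in place of trimmed means, the median of all genes moved to -0.16, and fold changes are to be read relative to that shift.

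The 12 largest rises were taken among genes whose mean log2 CPM reached 3 and that moved one way in all 5 pairs. They were led by a cytokine, a granule protease and genes of DNA replication. Gzmb (ENSMUSG00000015437, chromosome 14, 56258838 to 56262260, minus strand; GENCODE M21 annotation of the GRCm38 build, as for all gene positions here), the gene of granzyme B, the protease that CTLs inject into target cells, was at 60.5, 66.4, 36.7, 99.1 and 65.8 CPM in replicates 1 to 5 without IL-2 and at 6228, 5184, 4461, 6495 and 6091 CPM with IL-2. Lif (ENSMUSG00000034394, chromosome 11, 4257557 to 4272514, plus strand), a cytokine of the interleukin-6 family, was at 0.714, 0.387, 0.745, 2.13 and 4.22 CPM without IL-2 and 219, 224, 215, 215 and 263 CPM with it. Neither gene's groups came near each other. The fitted log2 fold changes were 6.49 (SE 0.21, adjusted p = 9.32e-23) for Gzmb and 7.35 (SE 0.59, adjusted p = 1.6e-11) for Lif. For Lif it was 7.96 without replicate 5, whose level without IL-2 was the highest. The other 10 genes included Cdc6, which loads the replicative helicase (1.21 to 91.1 CPM), Uhrf1, which maintains DNA methylation after replication (4.62 to 288 CPM), and Pclaf, a partner of PCNA. They also held the transcription regulators Cdca7 and Zbtb32, the crosslinking enzyme Tgm2 (5.08 to 269 CPM), the exonuclease Exo1, the replication factor Mcm10, the ribonucleotide reductase subunit Rrm2 (15.4 to 579 CPM) and the kinetochore gene Kntc1. Their log2 fold changes ran from 5.15 for Kntc1 to 6.23 for Cdc6.

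**Figure D1:**
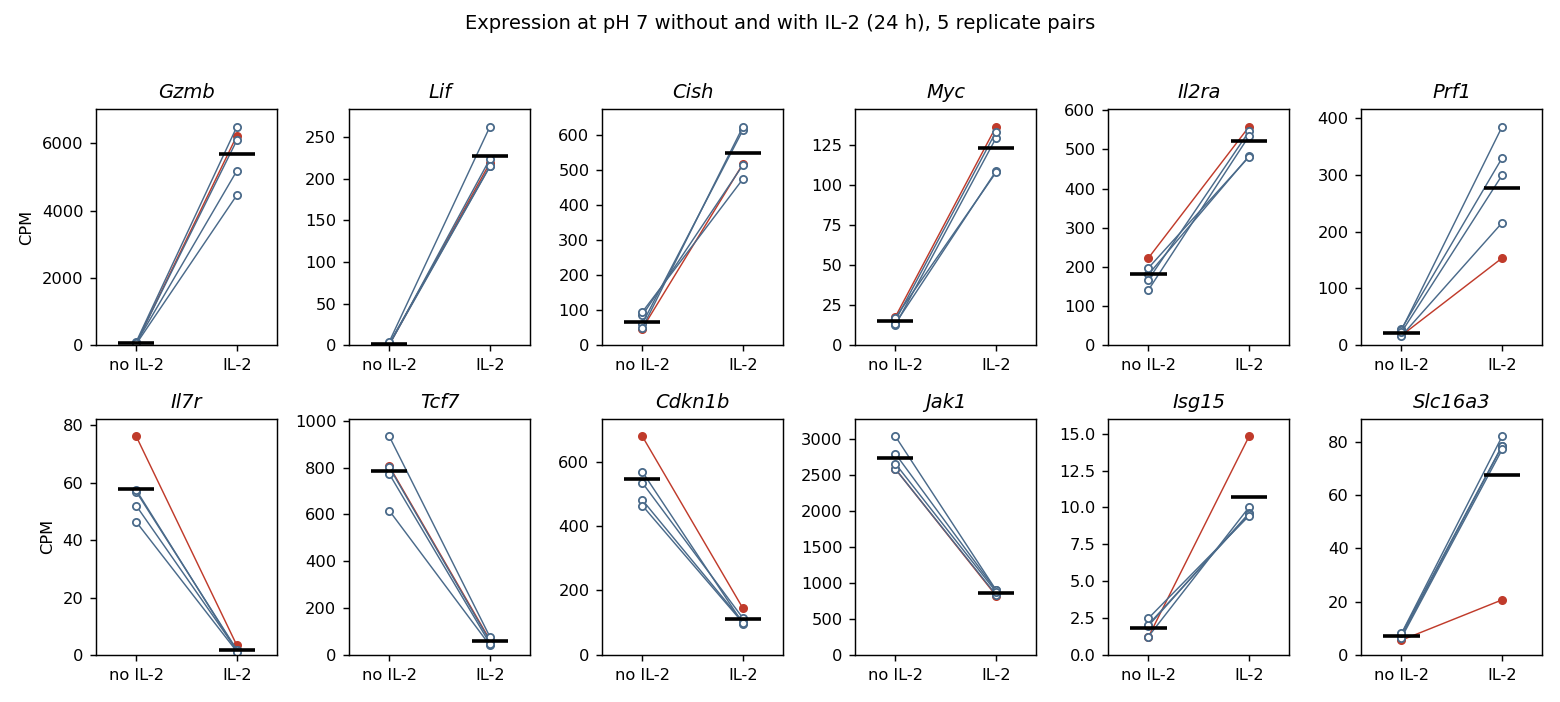
Expression of 12 genes in CPM (y axes, each from 0) in the 5 libraries at pH 7 without IL-2 and the 5 with IL-2, with a line joining the 2 libraries of each replicate and a bar at each group's mean. Replicate 1 is filled in red. The groups do not overlap for any of the 12 genes, and replicate 1 with IL-2 lies below the other 4 for Slc16a3 and above them for Isg15.

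By the same rule, the 12 largest falls were led by receptors and regulators of resting and memory T cells. Il7r (ENSMUSG00000003882, chromosome 15, 9505788 to 9530176, minus strand), the alpha chain of the receptor for interleukin-7, the survival cytokine of resting T cells, was at 76.2, 56.9, 57.5, 52.04 and 46.4 CPM without IL-2 and 3.30, 1.77, 1.36, 1.67 and 1.14 CPM with it. The groups lay far apart, with a log2 fold change of -5.01 (SE 0.18, adjusted p = 1.08e-21). Tcf7 (ENSMUSG00000000782, chromosome 11, 52252371 to 52283014, minus strand), which encodes TCF-1, a transcription factor of naive and memory T cells, was at 806, 801, 933, 616 and 773 CPM without IL-2 and 63.2, 58.3, 76.7, 40.5 and 47.8 CPM with it, a log2 fold change of -3.80 (SE 0.10, adjusted p = 5.27e-25). The other falls included Tbc1d4, a regulator of glucose transporter traffic (291 to 10.6 CPM), and Bcl6, a repressor of effector differentiation (64.8 to 3.92 CPM). They also held Actn1, an actin crosslinker (134 to 8.25 CPM), the anion transporter Slc26a11, the small GTPase Arl5c, the filamin regulator Rflnb, the long noncoding RNA Mirt1, the guanylate cyclase Gucy2e, the poly(A) polymerase Tent5c and the kinase Matk. Their log2 fold changes ran from -4.78 for Tbc1d4 to -3.55 for Matk.

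Transcripts of the receptor itself rose and that of 1 of its kinases fell. Il2ra (ENSMUSG00000026770, chromosome 2, 11642807 to 11693193, plus strand) was at 223, 181, 197, 167 and 141 CPM without IL-2 and 558, 483, 481, 546 and 534 CPM with it. The groups did not overlap, and the log2 fold change was 1.53 (SE 0.11). Il2rb went from 705 ± 111 to 1049 ± 112 CPM (SD, n = 5 in each group, as for every mean ± value here) and Il2rg from 241 ± 19.4 to 348 ± 16.4 CPM. Their log2 fold changes were 0.58 (SE 0.10, adjusted p = 2.11e-06) and 0.53 (SE 0.08, adjusted p = 1.3e-07). In the annotation, 27.5% of the 50-base windows of Il2rg are shared with the overlapping model Gm20489, so its level is less certain. Jak1 was at 2588, 2799, 3042, 2586 and 2662 CPM without IL-2 and at 824, 897, 903, 836 and 878 CPM with it. It fell by more than a factor of 3 in every pair, with a log2 fold change of -1.65 (SE 0.07, adjusted p = 1.09e-20). Jak3, at 273 ± 45.7 and 322 ± 58.4 CPM, did not pass (log2 fold change 0.24, SE 0.13, adjusted p = 0.0946), although it passed without replicate 5 or with only the groups compared. Stat5a (log2 fold change 0.21, adjusted p = 0.0301) and Stat5b (log2 fold change -0.23, adjusted p = 0.00322) moved little and in opposite directions, with groups that overlapped. Stat5a did not pass without replicate 1 (log2 fold change 0.10), 2 (log2 fold change 0.13) or 3 (log2 fold change 0.20), and Stat5b did not pass without replicate 5 (log2 fold change -0.14). Stat5a also did not pass with scaling by total count alone (log2 fold change 0.09) or with at least 10 counts in each library (log2 fold change 0.17). Of 9 members of the list of receptor chains, JAKs and STATs, 6 were higher, 2 lower and 1 did not pass.

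Genes known to be driven by STAT5 rose, led by Gzmb and by the receptor Tnfrsf9. Of 22 listed targets and feedback genes 16 were higher, 3 lower and 3 did not pass, with a median log2 fold change of 1.80. Cish (ENSMUSG00000032578, chromosome 9, 107296026 to 107302784, plus strand), which encodes a SOCS-family inhibitor of cytokine receptors and is a classical STAT5 target, was at 47.4, 61.7, 49.00, 84.97 and 94.5 CPM without IL-2 and 517, 613, 623, 514 and 474 CPM with it. The groups were separated by a wide gap, and the log2 fold change was 3.07 (SE 0.18, adjusted p = 7.17e-16). Tnfrsf9, the costimulatory receptor 4-1BB, was at 14.7, 18.3, 12.3, 18.7 and 16.4 CPM without IL-2 and at 321, 468, 449, 614 and 606 CPM with it (log2 fold change 4.92, SE 0.16, adjusted p = 1.45e-22). The inhibitors Socs1 (15.7 to 87.01 CPM, log2 fold change 2.46, SE 0.17) and Socs2 (20.7 to 92.2 CPM, log2 fold change 2.16, SE 0.10) rose. Socs3 was at 25.9 ± 3.27 and 26.8 ± 2.86 CPM and did not pass (adjusted p = 0.822). Among the survival kinases, Pim1 changed by 0.52 (SE 0.08), Pim2 by 1.17 (SE 0.14) and Pim3 by 1.93. The cytokine Osm (log2 fold change 3.48) rose as well. The 3 lower members were the costimulatory receptors Icos (log2 fold change -0.59) and Tnfrsf4 (log2 fold change -0.74) and the survival gene Mcl1 (log2 fold change -0.25). Il4ra (353 ± 34.4 and 355 ± 41.6 CPM) and Tnfrsf18 (62.7 ± 11.2 and 61.5 ± 8.87 CPM), 2 cytokine and costimulatory receptors on the list, did not pass.

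STAT dimers are known to bind the palindrome TTCNNNGAA. RefSeq promoter windows (GRCm38.p6, 250 bases before to 50 after the annotated start) were given for 18 of the 22 listed genes, and 6 of these 18 (33.3%) held the pattern, against 9.55% of 27025 genes with a window. These 6 were Cish, Gzmb, Lta, Socs3, Tnfrsf18 and Tnfrsf9, of which Socs3 and Tnfrsf18 did not pass the test. A match of letters is not a binding site. The windows of the 3 genes with the largest rises among those with a match are shown 5′ to 3′ on the gene's own strand, with each match in capitals, so that the pattern can be read in its place.
Gzmb, chr14:56262285-56262584, minus strand: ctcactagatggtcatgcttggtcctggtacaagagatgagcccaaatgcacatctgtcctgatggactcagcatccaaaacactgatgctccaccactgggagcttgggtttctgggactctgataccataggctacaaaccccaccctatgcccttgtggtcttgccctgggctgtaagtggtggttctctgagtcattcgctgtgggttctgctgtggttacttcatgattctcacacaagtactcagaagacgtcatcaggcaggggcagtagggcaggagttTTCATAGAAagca
Tnfrsf9, chr4:150927749-150928048, plus strand: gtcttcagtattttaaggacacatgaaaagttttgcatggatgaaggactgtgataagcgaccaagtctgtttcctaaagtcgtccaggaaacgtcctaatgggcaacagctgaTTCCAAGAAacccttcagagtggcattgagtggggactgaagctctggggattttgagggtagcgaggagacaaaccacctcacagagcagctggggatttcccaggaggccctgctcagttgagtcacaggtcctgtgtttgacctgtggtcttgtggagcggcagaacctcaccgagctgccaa
Cish, chr9:107296409-107296708, plus strand: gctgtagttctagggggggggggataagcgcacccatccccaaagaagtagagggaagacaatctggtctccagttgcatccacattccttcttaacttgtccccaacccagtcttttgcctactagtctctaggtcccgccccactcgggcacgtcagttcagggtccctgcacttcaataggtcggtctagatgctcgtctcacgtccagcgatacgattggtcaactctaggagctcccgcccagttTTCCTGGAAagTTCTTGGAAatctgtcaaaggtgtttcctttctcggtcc
In Cish 2 matches begin 0 and 11 bases after the start, in Gzmb 1 begins 37 bases after it, and in Tnfrsf9 1 begins 136 bases before it. RefSeq gives 2 windows for Tnfrsf9, and the other, which holds no match, starts at base 150919905. Both lie inside the gene as GENCODE gives it, from base 150914562. The Cish window likewise lies inside its gene, which GENCODE gives from base 107296026, so the RefSeq start is not the GENCODE start.

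MYC rose and its antagonists of the MXD family split. Myc (ENSMUSG00000022346, chromosome 15, 61985391 to 61990374, plus strand) was at 17.7, 12.5, 15.4, 13.5 and 17.2 CPM without IL-2 and 136, 129, 133, 109 and 108 CPM with it. Every library with IL-2 was over 6 times any library without it (log2 fold change 3.02, SE 0.12, adjusted p = 1.18e-20). Its level was 234 CPM at 0 h. Mycn, the neuronal paralogue, rose from 2.80 to 35.9 CPM (log2 fold change 3.67, SE 0.12). Mxd4 (391 to 68.6 CPM) and Mxi1 (60.1 to 28.1 CPM), which compete with MYC for their partner MAX, fell by 2.53 and 1.11 on the log2 scale. Mxd3, which is known to peak in dividing cells, rose by 3.63 (SE 0.21). Mnt, another MAX partner, did not pass (adjusted p = 0.0856), but was lower past the threshold without replicate 1 or 2. It also passed as lower with scaling by total count alone or with at least 10 counts in each library. Of 11 members of the network 5 were higher, 5 lower and 1 did not pass.

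Ribosome biogenesis, a process that MYC is known to drive, rose as a whole. All 35 tested genes of the 36 listed were higher with IL-2 (Wdr74 was too low to test), in 34 of them without overlap of the groups. Log2 fold changes ran from 0.41 (Npm1) to 3.50 (Bysl) and had a median of 2.03. Bysl, a factor of the small subunit, went from 4.07 ± 0.588 to 46.1 ± 5.20 CPM, and Nop58, a core protein of the box C/D particles that methylate ribosomal RNA, from 41.3 ± 2.74 to 285 ± 37.1 CPM. The RNA polymerase I subunit Polr1b (log2 fold change 2.66) and the nucleolar GTPase Gnl3 (log2 fold change 2.57) rose as well. CACGTG, the E-box that MYC and MAX are known to bind, was found in the promoter windows of 10 of the 31 listed genes with a window (32.3%), Nop2, Pes1 and Tsr1 among them. The share was 8.09% over all genes with a window. Nop2, Pes1 and Tsr1 rose by 2.08, 0.86 and 2.58 on the log2 scale, and Bysl, Nop58, Polr1b and Gnl3 held no match. Whether the E-box had a part in the rise was not tested. Of the STAT5 list 2 of 18 genes (11.1%) held it, and of the ribosome list 4 of 31 (12.9%) held TTCNNNGAA. Both patterns are palindromes, so a match counts for both strands.

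Nutrient uptake and glycolysis rose with exceptions. Of 12 amino acid transporters 9 were higher and 2 lower. Slc7a5, the light chain of the large neutral amino acid transporter, went from 30.5, 16.4, 15.3, 16.4 and 16.1 CPM without IL-2 to 216, 181, 167, 164 and 189.9 CPM with it (log2 fold change 3.33, SE 0.16, adjusted p = 2.15e-18). The lysosomal arginine sensor Slc38a9 (log2 fold change -1.96, SE 0.08) and the transporter Slc43a2 (log2 fold change -1.23, SE 0.10) fell. Slc7a11, the cystine transporter, had 2 reads in all without IL-2, both in replicate 1, and 20 with it. The ratio per total count was 9.51, with a 95% exact interval of 2.31 to 83.9 for counting error only. Slc43a1 did not pass (1.64 and 1.11 CPM). Of 20 genes of glucose uptake and glycolysis 15 were higher, 1 lower and 4 did not pass, with a median log2 fold change of 1.54. Hexokinase 2 (Hk2), the first enzyme of the pathway, was at 8.35, 2.71, 3.76, 4.63 and 3.80 CPM without IL-2 and 111, 128, 101, 129.8 and 143 CPM with it (log2 fold change 4.80, SE 0.26, adjusted p = 2.1e-16). Slc16a3, the lactate exporter MCT4, was at 5.54, 7.83, 7.04, 6.44 and 8.06 CPM without IL-2 and at 20.7, 78.7, 78.5, 77.2 and 82.2 CPM with it. Replicate 1 thus rose far less than the other 4 (log2 fold change 3.22, SE 0.39, adjusted p = 2.32e-08). Gpi1, which isomerizes glucose phosphate, did not pass (905 and 841 CPM) and was also lowest in replicate 1 with IL-2. Pdk1, a brake on pyruvate entry into mitochondria, fell by 0.43 on the log2 scale.

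Cholesterol synthesis rose in 22 of 23 genes, with a median log2 fold change of 2.09 and no overlap of the groups in any of the 22. Idi1, an isomerase of the pathway, rose by 3.99 (SE 0.31), although 25.3% of its windows are shared with other gene models. Tm7sf2, a sterol reductase, did not pass (5.76 ± 0.712 and 6.64 ± 0.308 CPM). Genes of serine and proline synthesis known to be driven by ATF4 rose, while the gene of ATF4 itself did not pass. Psat1, of serine synthesis, went from 21.8 ± 1.68 to 235 ± 17.7 CPM (log2 fold change 3.42, SE 0.08, adjusted p = 3.05e-25), and Pycr1, of proline synthesis, from 17 reads in all to 393. Atf4 was at 214, 229, 212, 273 and 284 CPM without IL-2 and 207, 229, 222, 271 and 277 CPM with it, values that overlap almost fully (adjusted p = 0.941). Ddit3, a stress transcription factor (log2 fold change -1.57, SE 0.16), and Trib3, a pseudokinase of the same response (log2 fold change -0.93, SE 0.20), fell. In all 12 of 18 listed genes were higher, 3 lower and 3 did not pass. Chaperones of the endoplasmic reticulum rose in 15 of 17 genes, led by Sdf2l1 (log2 fold change 3.66, SE 0.13) and by Hspa5, the chaperone BiP (256 ± 40.3 to 1185 ± 165 CPM, log2 fold change 2.22, SE 0.09). Dnajb9, a co-chaperone that was lower (log2 fold change -0.30, adjusted p = 0.0408), did not pass without replicate 3 (log2 fold change -0.28), 4 (log2 fold change -0.20) or 5 (log2 fold change -0.25) and was at -0.49 without replicate 1. Sel1l, of protein disposal, did not pass (adjusted p = 0.0898), although it did with only the groups compared (log2 fold change 0.15, adjusted p = 0.042).

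DNA replication was the list with the largest median among those described. All 42 genes were higher with no overlap between groups, with a median log2 fold change of 3.20 and a range from 0.68 (Gins4) to 6.53 (Orc1). Cdc6 was at 1.26, 1.52, 1.83, 0.779 and 0.662 CPM without IL-2 and at 83.4, 94.2, 90.1, 95.4 and 92.6 CPM with it. Orc1, of the complex that marks replication origins, had 48 reads over the 5 libraries without IL-2 and 4319 with it. The mean log2 CPM of the 42 genes was 5.43 ± 0.21 at 0 h, 3.78 ± 0.08 at pH 7 without IL-2 and 6.99 ± 0.05 with it. The level with IL-2 lay above the starting cells and that without it below them. Other lists that rose went both ways against 0 h in mean log2 CPM. STAT5 targets were at 7.24 ± 0.04 with IL-2 at pH 7 and 7.79 ± 0.05 at 0 h. Glycolysis (7.67 ± 0.29 and 8.81 ± 0.39) and ATF4 targets (4.58 ± 0.13 and 5.76 ± 0.29) also stayed below the start. ER chaperones (7.81 ± 0.09 and 7.67 ± 0.13) lay above it in all 5 replicates. Ribosome biogenesis (6.65 ± 0.11 and 6.46 ± 0.21) lay above it by the mean, but not in every replicate. Its ranges overlapped (6.51 to 6.81 and 6.18 to 6.64). A rise here is thus relative to the culture without IL-2. Genes of mitosis and G2/M were higher in 36 of 37 cases, with a median of 3.13. Cdk1, the mitotic kinase, was at 12.2, 15.8, 17.5, 7.87 and 7.24 CPM without IL-2 and 182, 223, 212, 253 and 259 CPM with it (log2 fold change 4.25, SE 0.20, adjusted p = 1.92e-18). The checkpoint kinase Bub1 rose by 3.98 (SE 0.24). Replicates 4 and 5 were the lowest without IL-2 for both Cdk1 and Bub1. The exception was Pttg1, the gene of securin, which guards sister chromatid cohesion. It fell in all 5 pairs, from 26.2, 34.6, 36.4, 37.4 and 36.1 CPM to 20.1, 18.9, 19.9, 22.6 and 23.7 CPM (log2 fold change -0.69, SE 0.09, adjusted p = 6.54e-08).

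Of the genes that start the cell cycle, the cyclins Ccnd1, Ccnd2 and Ccnd3 and the kinase Cdk2 rose, and the inhibitors of these kinases moved in both directions. Ccnd2 went from 208 ± 15.6 to 763 ± 48.5 CPM (log2 fold change 1.88, SE 0.11, adjusted p = 4.81e-17), Ccnd3 rose by 2.33 and Cdk2 went from 12.4 to 101 CPM (log2 fold change 3.04, SE 0.13). Ccnd1 stayed low, at 0.286 and 2.76 CPM (41 and 364 reads in all). Cdkn1b, which encodes p27, was at 679, 481, 535, 569 and 464 CPM without IL-2 and 144, 102, 114, 97.5 and 99.2 CPM with it (log2 fold change -2.30, SE 0.18, adjusted p = 1.12e-12), and the groups lay far apart. The inhibitors Cdkn2a (log2 fold change 2.52), which encodes p16 and ARF, Cdkn2c (log2 fold change 1.66), which encodes p18, Cdkn1a (log2 fold change 0.60), which encodes p21, and Cdkn2d (log2 fold change 0.56), which encodes p19, were higher. Rbl2, a retinoblastoma relative found in resting cells, fell by 0.73, and Rb1 did not pass (adjusted p = 0.242). With scaling by total count alone Rb1 was lower past the threshold. Of 15 tested genes 11 were higher, 2 lower and 2 did not pass.

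**Figure D2:**
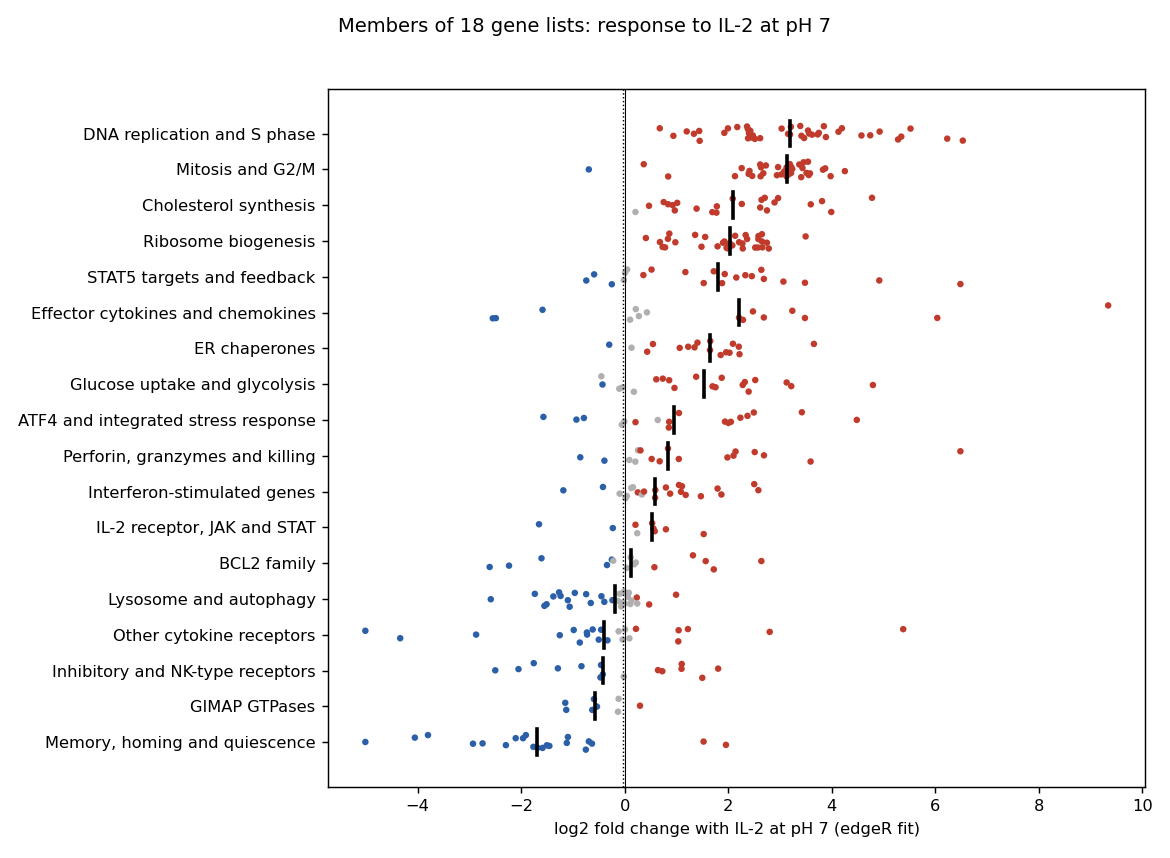
Fitted log2 fold change with IL-2 at pH 7 (x axis) of each tested member of 18 gene lists (y axis, scattered vertically within a list). Red points passed the test and were higher, blue points passed and were lower, grey points did not pass, black bars mark list medians, and the dotted line marks the median of all 13819 genes. Replication, mitosis, cholesterol and ribosome genes lie to the right, and genes of memory, homing and quiescence lie to the left.

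Genes of killing and effector cytokines rose with exceptions. Prf1 (ENSMUSG00000037202, chromosome 10, 61297833 to 61304680, plus strand), which encodes perforin, the pore through which granzymes enter a target, was at 17.2, 28.7, 16.4, 26.7 and 22.9 CPM without IL-2 and at 154, 329.7, 216, 385 and 299 CPM with it (log2 fold change 3.59, SE 0.18, adjusted p = 5.59e-18). Replicate 1 had the lowest value with IL-2. Of 17 genes of killing 12 were higher and 2 lower. The lower were the granzyme Gzmk (log2 fold change -0.86, SE 0.12) and Serpinb6b, a protease inhibitor (log2 fold change -0.39), which did not pass without replicate 3 (log2 fold change -0.24). Serpinb6b also did not pass with no replicate block or with all detected genes tested. Srgn, the granule proteoglycan, did not pass (491 ± 57.8 and 522 ± 34.9 CPM). Granzymes c to g are near-identical copies whose reads may have been lost or shared, and are not described singly. Ifng (ENSMUSG00000055170, chromosome 10, 118441046 to 118445892, plus strand), the gene of interferon-gamma, was at 1.89, 3.79, 1.60, 4.96 and 2.40 CPM without IL-2 and 18.4, 28.9, 18.9, 41.4 and 28.6 CPM with it (log2 fold change 3.24, SE 0.27, adjusted p = 3.25e-12), and its groups did not overlap. Il24, of the interleukin-10 family, had 1 read over the 5 libraries without IL-2 and 1069 with it. The ratio per total count was 1017, with an interval of 182 to 40202. Il10 had 1 read without IL-2 and 109 with it (ratio 104, interval 18.2 to 4133). The chemokine Ccl5 fell from 135, 111, 121, 121 and 99.7 CPM to 25.4, 20.5, 24.7, 19.1 and 12.4 CPM (log2 fold change -2.55, SE 0.12, adjusted p = 4.44e-19). Ccl1 fell from 4.75 to 0.816 CPM. Of 15 tested cytokines and chemokines 8 were higher, 3 lower and 4 did not pass, among them Tnfsf8 (CD30 ligand, 178 and 190.1 CPM).

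Among effector transcription factors, 9 of 20 were higher and 6 lower. Irf8, known to promote effector function in CD8 T cells, went from 24.2 ± 4.83 to 286 ± 23.8 CPM (log2 fold change 3.59, SE 0.15, adjusted p = 7.84e-20). The ligand-activated factor Ahr went from 1.96 to 15.9 CPM (log2 fold change 3.05, SE 0.21). Ikzf2, which encodes Helios, was at 138, 116, 129, 107 and 109.9 CPM without IL-2 and 19.8, 15.3, 15.3, 9.97 and 12.6 CPM with it (log2 fold change -3.05, SE 0.17, adjusted p = 1.23e-16). Rora fell by 1.72. Hif1a, the hypoxia factor, was at 401 ± 16.2 and 467 ± 25.3 CPM and did not pass (adjusted p = 0.1), although its groups did not overlap and it passed with only the groups compared (log2 fold change 0.23, adjusted p = 0.00646 in edgeR).

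Genes of memory, homing and quiescence fell in 19 of 21 cases, all 19 without overlap, with a median log2 fold change of -1.68. The trafficking regulator Klf2 went from 16.6 ± 4.07 to 4.37 ± 0.816 CPM (log2 fold change -1.91, SE 0.16, adjusted p = 8.43e-13). S1pr1, the receptor that guides exit from lymph nodes (log2 fold change -2.74), and the quiescence gene Pik3ip1 (log2 fold change -2.93) fell further. The 2 exceptions were transcription factors. Eomes was at 151, 140.0, 144, 134 and 128 CPM without IL-2 and 555, 529, 529, 535 and 559 CPM with it (log2 fold change 1.96, SE 0.09, adjusted p = 5.09e-19). Id3 went from 7.79 to 21.6 CPM (log2 fold change 1.53, SE 0.26). Of 15 inhibitory and NK-type receptors 6 were higher and 8 lower. Ctla4 was at 320.3, 341, 389, 373 and 304 CPM without IL-2 and 70.9, 53.5, 54.3, 63.1 and 62.9 CPM with it (log2 fold change -2.50, SE 0.18, adjusted p = 7.26e-14). Klrd1, the CD94 chain, fell by 2.05. Havcr2, the gene of TIM-3, rose from 15.9 to 56.3 CPM (log2 fold change 1.81, SE 0.13), the ectonucleotidase Entpd1 rose by 1.50 (SE 0.09). Lag3 did not pass (24.1 ± 3.36 and 23.8 ± 4.21 CPM). Of 10 costimulatory receptors 6 were lower, led by Cd27 (log2 fold change -1.59, SE 0.11) and Cd28 (log2 fold change -1.17, SE 0.13), and 3 higher, among them Tnfrsf9 and Slamf1 (log2 fold change 1.18, SE 0.16).

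Receptors for other cytokines and the BCL2 family moved in both directions. Of 22 receptors tested 6 were higher and 12 lower. Il12rb1, a chain of the interleukin-12 receptor, rose from 51.7 ± 5.69 to 357 ± 25.7 CPM (log2 fold change 2.80, SE 0.13, adjusted p = 2.07e-19). Il1rl1, the interleukin-33 receptor, went from 2 reads in all to 106 (ratio per total count 50.4, 95% exact interval 13.6 to 422). Csf2rb, the common beta chain, went from 54 reads in all to 2 (ratio 0.0352, interval 0.00416 to 0.134). Within the BCL2 family 5 of 15 genes were higher, 5 lower and 5 did not pass. The protective genes Bcl2 (270.1, 223, 237, 228 and 199 CPM without IL-2, 774, 737, 796, 710.2 and 771 CPM with it) and Bcl2l1, which encodes BCL-XL (15.4 to 95.9 CPM), rose by 1.72 (SE 0.10) and 2.64 (SE 0.09), without overlap. The death-promoting BH3-only genes Bcl2l11 (542, 522, 539, 514 and 534 CPM without IL-2, 245, 164, 192, 145 and 138 CPM with it), Bmf (log2 fold change -2.61, SE 0.14) and Bbc3 (log2 fold change -2.23, SE 0.18) fell. Bid, also a BH3-only gene, went the other way and was higher (log2 fold change 1.32). Mcl1, which is protective, was lower (log2 fold change -0.25). The effector Bak1 (log2 fold change 1.57) was higher, and the effector Bax did not pass (86.1 ± 13.3 and 92.4 ± 3.48 CPM).

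Interferon-stimulated genes, which protect against viruses, rose by a smaller amount. Of 23 genes 15 were higher, 2 lower and 6 did not pass, with a median log2 fold change of 0.59. Isg15 went from 1.22, 1.25, 1.97, 2.05 and 2.48 CPM to 14.8, 10.02, 9.61, 9.54 and 9.43 CPM (log2 fold change 2.58, SE 0.19, adjusted p = 3.69e-14), and replicate 1 was above the other 4 with IL-2. Usp18, which removes ISG15 from proteins, went from 8.87 to 49.9 CPM (log2 fold change 2.50, SE 0.16). The lower members were Rsad2 (log2 fold change -1.18) and Irf9 (log2 fold change -0.42), and Gbp3 did not pass. Lysosome and autophagy genes were lower in 15 of 30 cases and higher in 3. The falls were led by Ctsl (log2 fold change -2.59, SE 0.13) and Map1lc3a (log2 fold change -1.73, SE 0.14) and the rises by the proton pump subunit Atp6v1h (log2 fold change 0.99, SE 0.11) and Ctsd (log2 fold change 0.47, SE 0.08). Lamp1 was at 237 ± 9.02 and 238 ± 10.3 CPM and did not pass. Of 8 GIMAP GTPases, survival proteins of lymphocytes, 5 were lower, led by Gimap6 (log2 fold change -1.15, SE 0.07) and Gimap1 (log2 fold change -1.13, SE 0.12). Gimap7 was higher (log2 fold change 0.30, not without replicate 1) and Gimap4 did not pass, though it was lower past the threshold without replicate 1. Of 7 mitochondrial transcripts tested mt-Nd1 (log2 fold change 1.22, SE 0.14), mt-Nd2 (log2 fold change 0.98, SE 0.14) and mt-Cytb (log2 fold change 0.34) rose and 4 did not pass, mt-Co1 among them (8172 and 7846 CPM). Windows shared with other gene models made up 26.3% for Ctsl, 32.4% for Ctsd, 35.5% for Gimap1 and 51.1% for mt-Co1. The levels of these 4 genes are less certain.

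The response at pH 7 was set against that at pH 7.4, the usual pH of culture, by the interaction of IL-2 and pH in the same edgeR fit. The difference of the responses passed for 662 genes (4.79%), namely 303 (2.19%) more positive at pH 7 and 359 (2.6%) more negative. This count depended on the libraries and the model: it was 101 without replicate 2, 98 without replicate 3, 304 without replicate 4, 378 without replicate 5, 177 without the replicate block and 1632 when only the 4 groups compared were fitted. Scaling by total count alone gave 617 genes, of which 60.8% were more positive at pH 7, in place of 45.8%.

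**Figure D3:**
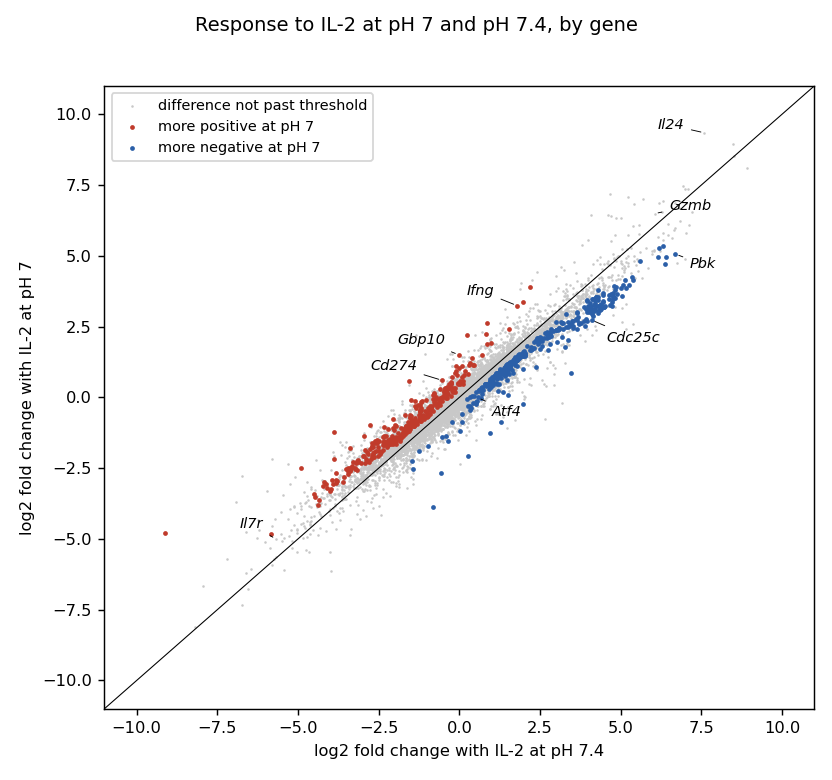
Fitted log2 fold change with IL-2 of each of 13819 genes at pH 7.4 (x axis) and at pH 7 (y axis), with the line of equal response. Red and blue mark the 303 and 359 genes whose difference passed, more positive or more negative at pH 7, and grey the rest. Mitotic genes such as Pbk and Cdc25c lie below the line, and Gbp10, Ifng and Cd274 lie above it.

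Mitotic genes led the side that rose less at pH 7. The difference was negative and passed for 33 of the 37 genes of mitosis and G2/M, against 3 of 42 genes of DNA replication, and the median differences were -1.10 and -0.19. The mitotic count was 7 without replicate 2, 9 without replicate 3, 12 without the replicate block and 16 with all detected genes tested. The median difference lay between -0.99 and -1.22 when replicates were left out in turn. The mean log2 CPM of the 37 genes in replicates 1 to 5 was 3.72, 3.88, 4.04, 3.07 and 2.99 at pH 7.4 without IL-2 and 4.38, 4.81, 4.98, 3.77 and 3.89 at pH 7 without IL-2, higher at pH 7 in all 5. With IL-2 it was 7.37, 7.57, 7.60, 7.38 and 7.43 at pH 7.4 and 6.97, 7.30, 7.26, 7.34 and 7.44 at pH 7, lower at pH 7 in 4 of 5, and 0 h cells were at 5.38 ± 0.20. Over the members, the median difference of pH 7 from pH 7.4 was 0.90 without IL-2, with all 37 genes higher, and -0.20 with IL-2, with 2 of 37 higher. The distance between the pH values was thus wider without IL-2 than with it. These comparisons of levels between pH values are descriptions and were not tested. The 6 most negative differences by the naming rule were in Pbk, Ankle1, Espl1, Sapcd2, Troap and Cdc25c, genes of mitosis and chromosome segregation. Pbk, a mitotic kinase, was at 3.06, 4.15, 5.48, 1.64 and 0.786 CPM at pH 7 without IL-2 and 81.02, 93.8, 93.01, 100.3 and 119.7 CPM with it. The means at pH 7.4 were 0.988 and 103 CPM (log2 difference -1.63, SE 0.46, adjusted p = 0.0361). Espl1, the separase that cuts sister chromatids apart, had a response of 3.58 at pH 7 and 5.03 at pH 7.4 (log2 difference -1.45, SE 0.29, adjusted p = 0.00393).

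**Figure D4:**
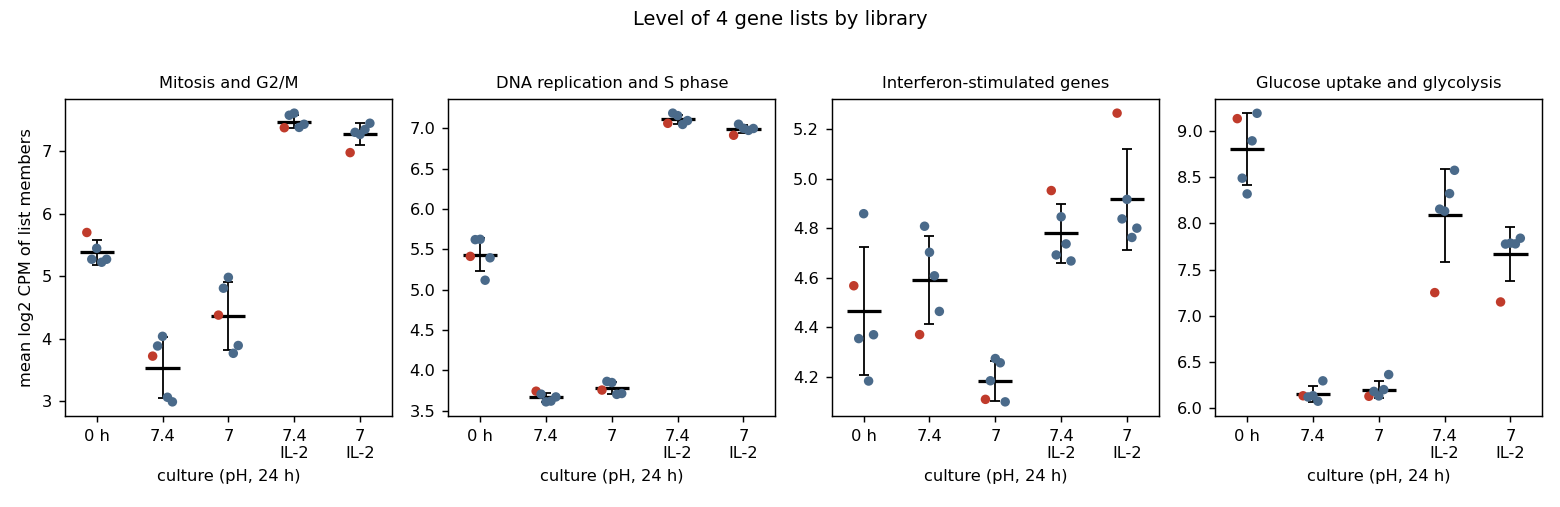
Mean log2 CPM (y axes, not from 0) of the members of 4 gene lists in each library at 0 h and after 24 h at pH 7.4 or pH 7, without and with IL-2. Points are the 5 replicates, with replicate 1 in red, and bars the mean ± SD. Mitotic genes at pH 7 without IL-2 lie above those at pH 7.4 without IL-2, and interferon-stimulated genes lie below.

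Interferon-stimulated genes rose more at pH 7. Their median response was 0.59 at pH 7 and 0.01 at pH 7.4, and the difference was positive and passed for 9 of 23 genes, with a median difference of 0.51. The count was 2 without replicate 2, 3 without replicate 3, 4 or 5, 11 without replicate 1 and 3 without the replicate block, while the median difference lay between 0.45 and 0.56. Without IL-2 all 23 members were on average lower at pH 7 than at pH 7.4, with a median difference of -0.34, and with IL-2 17 of 23 were higher, with a median of 0.17. By pair, the median response at pH 7 was 0.99, 0.50, 0.61, 0.43 and 0.61, with replicate 1 the largest, and at pH 7.4 it was 0.43, -0.20, 0.01, -0.21 and 0.03. The guanylate-binding protein Gbp10 was at 12.6, 20.1, 13.9, 28.7 and 11.99 CPM at pH 7 without IL-2 and 61.7, 44.7, 42.7, 46.9 and 45.8 CPM with it. The means at pH 7.4 were 35.7 and 34.9 CPM (log2 difference 1.53, SE 0.29, adjusted p = 0.003). Of its windows 84.1% are shared with Gbp6 and other paralogues, so the member of the family is uncertain. Cd274, the checkpoint ligand PD-L1, which interferon is known to induce, was at 58.6, 68.5, 50.4, 101 and 66.4 CPM without IL-2 and 149, 91.5, 87.3, 92.1 and 95.7 CPM with it, with groups that overlapped. Its response was 0.60 at pH 7, or 0.31 without replicate 1, and -0.53 at pH 7.4 (log2 difference 1.13, SE 0.24, adjusted p = 0.00651). Ifng itself responded more at pH 7, by 3.24 against 1.78 (log2 difference 1.46, SE 0.36, adjusted p = 0.0173). Its mean was 2.93 CPM at pH 7 and 7.18 CPM at pH 7.4 without IL-2, and 27.2 and 23.3 CPM with it. The other 3 of the most positive differences, Dtx4, Pou6f1 and Spo11, were genes that fell with IL-2 and fell less at pH 7, by 2.98, 2.68 and 3.13 on the log2 scale.

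Several other lists rose somewhat less at pH 7 than at pH 7.4 by their medians, with few members past the threshold. Ribosome biogenesis was at 2.03 and 2.46 with 7 of 35 differences negative, and glycolysis at 1.54 and 2.06 with 4 of 20. ER chaperones were at 1.65 and 1.99 with 4 of 17, ATF4 targets at 0.95 and 1.59 with 4 of 18, and cholesterol synthesis at 2.09 and 2.27 with 0 of 23. Of the ribosome genes 0 passed without replicate 2 or 3, 1 without replicate 4 and 3 without replicate 5. Atf4 was 1 of the 4, with a response of 0.57 at pH 7.4 and -0.01 at pH 7 (log2 difference -0.57, SE 0.11, adjusted p = 0.00201). Mycn rose by 4.76 and 3.67 (log2 difference -1.09, SE 0.17, adjusted p = 0.000538). For Myc the responses were 3.31 and 3.02 (log2 difference -0.29, SE 0.16, adjusted p = 0.35) and for Gzmb 6.05 and 6.49 (log2 difference 0.44, SE 0.23, adjusted p = 0.313). For Cish they were 3.10 and 3.07 (log2 difference -0.04, SE 0.24, adjusted p = 0.958) and for Il2ra 1.58 and 1.53 (log2 difference -0.06, SE 0.15, adjusted p = 0.888). These differences did not pass, which does not show that the responses were alike. No difference passed among the 22 STAT5 genes, whose medians were 1.80 at pH 7 and 1.55 at pH 7.4. Genes of memory and quiescence fell by 1.68 and 1.93, with 4 of 21 differences past the threshold, all towards a smaller fall at pH 7, Tcf7 among them (log2 difference 0.58, SE 0.13, adjusted p = 0.00664). Effector cytokines and chemokines had median log2 fold changes of 2.21 and 1.78, and 4 of 15 differences were positive and 0 negative. Of 8 GIMAP genes 4 had a positive difference and 0 a negative one. With a replicate left out the positive differences came to 1 to 3 cytokine genes and 1 to 3 GIMAP genes, the fewest without replicate 2 for the cytokines and without replicate 2, 3 or 4 for the GIMAP genes. The memory list had 2 without replicate 2 or 3.

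**Figure D5:**
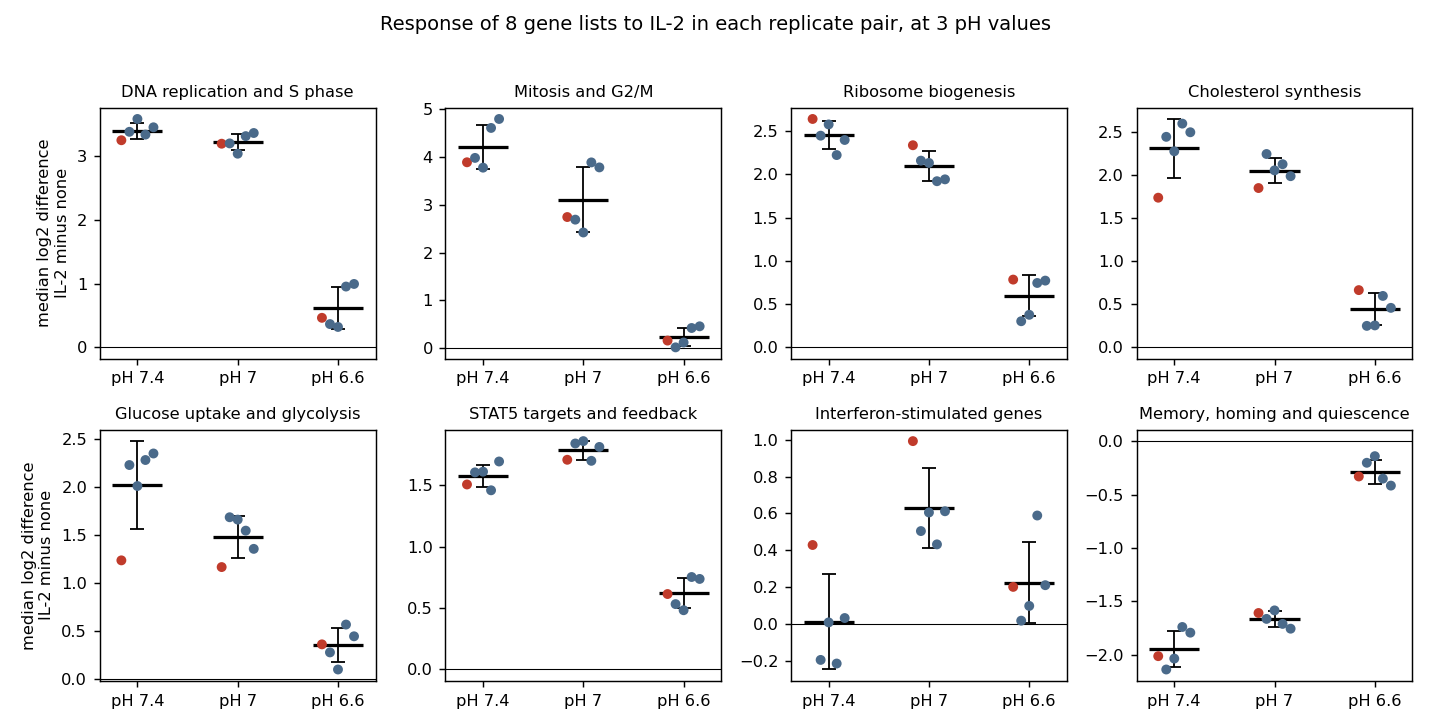
Median over the members of 8 gene lists of the log2 CPM difference between the libraries with and without IL-2 of each replicate (y axis) at pH 7.4, pH 7 and pH 6.6 (x axis). Points are the 5 replicates, replicate 1 in red, and bars the mean ± SD. In 7 of the lists the pH 7 mean lies nearer that at pH 7.4 than that at pH 6.6, and interferon-stimulated genes are the exception.

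Against pH 6.6 the response at pH 7 differed for most genes, and growth and division genes rose more at pH 7. The difference passed for 8433 genes (61%), 4186 (30.3%) more positive at pH 7 and 4247 (30.7%) more negative. Scaling by total count alone changed the split from 49.6% to 36.9% positive. All 42 replication genes, all 35 ribosome genes, 22 of 23 cholesterol genes and 36 of 37 mitotic genes passed with a larger rise at pH 7. At the same time 18 of 21 genes of memory and quiescence passed with a lower value at pH 7. The mitotic median was 3.13 at pH 7 and 0.23 at pH 6.6. The median of the 5 pairs at pH 6.6 was 0.16, 0.02, 0.12, 0.42 and 0.46 in replicates 1 to 5. Without IL-2, the mean log2 CPM of mitotic genes was higher at pH 6.6 (5.26 to 6.01) than at pH 7 (3.77 to 4.98). With IL-2 it was lower at pH 6.6 (5.66 to 6.10 and 6.97 to 7.44). Replication genes were likewise higher at pH 6.6 without IL-2 (4.33 to 4.73 and 3.70 to 3.86). Ribosome genes were not (4.38 to 4.57 and 4.62 to 4.82). The smaller mitotic response at pH 6.6 thus reflected levels both without and with IL-2. These levels were not tested. Gzmb rose by 6.49 at pH 7 and 3.24 at pH 6.6 (log2 difference 3.25, SE 0.24, adjusted p = 3.98e-13), Lif by 7.35 and 2.64 (log2 difference 4.72, SE 0.76, adjusted p = 7.03e-06). Il7r changed by -5.01 and -0.69 (log2 difference -4.32, SE 0.24, adjusted p = 7.68e-16). A few genes that STAT5 is known to drive did not pass: Bcl2 rose by 1.72 and 1.60 (log2 difference 0.12, SE 0.13, adjusted p = 0.466) and Pim2 by 1.17 and 1.18 (log2 difference -0.00, SE 0.19, adjusted p = 0.993). The SOCS gene Cish rose more at pH 7 (log2 difference 1.17, SE 0.24, adjusted p = 0.000102). In the whole list of 22 STAT5 genes, 13 differences passed as more positive at pH 7 and 4 as more negative. Klf2 fell at pH 7 (log2 fold change -1.91) and had a value of 0.57 at pH 6.6 (log2 difference -2.47, SE 0.22, adjusted p = 1.35e-11).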

How the data were processed

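RNA of 35 CTL cultures was sequenced as single reads from stranded, poly(A)-selected libraries. The raw counts per gene that the authors deposited were used as they are. The submitters' processing notes name cutadapt 1.8, STAR 2.5.2b, HTSeq 0.6.1 and GRCm38, while the strand setting and annotation release are not given in the sources used here, so reads of overlapping or antisense genes may not be separated. Rows for unassigned reads stayed out of library sizes and tests: 8.36% to 11.1% of the table without IL-2 and 5.05% to 5.95% with it lay outside genes, and 32.8% to 35.2% and 35.5% to 37.5% were not unique. Samples were grouped by their labels. Each culture gave 1 library.

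All 35 libraries entered 1 fit in edgeR 4.0.16 (R 4.3.3; trimmed-mean scaling, filterByExpr with a minimum count of 10 over the 7 groups, robust quasi-likelihood F test), with replicate number as blocking factor and Benjamini-Hochberg adjustment over 13819 genes at 0.05. Standard errors are the fold change divided by the root of F. CPM values use the scaled library sizes, and log2 CPM a prior count of 2. The numbers pair the libraries because the design text says that the same 5 biological replicates were cultured in every condition. At pH 7 the deviations of same-numbered libraries correlated at 0.0686 to 0.488 over genes (5 pairs) and those of differently numbered ones at a median of -0.0787 and at most 0.150 (20 pairs), and no 2 libraries agreed within sampling noise. With 22210451 to 34033340 reads on genes in a library, counting error was small for most genes named. It was larger for genes given as read totals or at very low CPM. The intervals given cover counting error only.

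The genes and lists were chosen with earlier results of these data known. Named were the 12 largest rises and falls past the threshold (mean log2 CPM of at least 3, the same sign in 5 of 5 pairs, no Gm or Rik names), 25 fixed genes, the 2 largest changes in each direction and the most abundant gene that did not pass in each list, and the 6 most positive and negative differences from each other pH. For these differences the same level and name conditions held, and the sign of the difference had to be the same in 5 of 5 replicates. A few more list members were named as examples after their values were seen. Lists were described by counts and medians, with no test. Scripts were tested on simulated counts. Alternatives were other scalings, filters, DESeq2 1.42.0, only the groups compared, no replicate block, a minimum difference of 1 and each replicate left out. A few named genes are not reported here.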

Additional observations from a re-analysis of the deposited data

Results flagged for a closer look

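Of 298 groups of 5 values, 23 held a library far from the other 4 by Dixon's ratio, a test that chance passes in about 1 of 20 groups, and 15 of the 23 were replicate 1. With IL-2, replicate 1 was lowest for Slc16a3 (20.7 CPM) and Gpi1 (617 CPM) and stood apart for Gucy2e (1.55 CPM), Pim1 (165 CPM), Isg15 (14.8 CPM), Gbp3 (153 CPM), Gbp10 (61.7 CPM), Cd274 (149 CPM), Lamp1 (256 CPM) and Spo11 (6.28 CPM). Without IL-2, replicate 1 stood apart for Slc7a5 (30.5 CPM), Slc7a11 (0.0840 CPM), Pttg1 (26.2 CPM), Id3 (12.8 CPM) and Ahr (3.48 CPM). In the other replicates the values were 263 CPM for Lif in replicate 5 with IL-2, 1.59 CPM for Rsad2 in replicate 2 with IL-2, and, without IL-2, 59.8 CPM for Bcl6 in replicate 3, 10.0 CPM for Socs1, 8.19 CPM for Tnfrsf4 and 0.0413 CPM for Il10 in replicate 5, 0.0410 CPM for Il24 in replicate 4 and a total of 34033340 reads in replicate 2. The part of these libraries in other results was not tested beyond leaving each replicate out.

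The response to IL-2 differed between pH 7 and pH 7.4, by an interaction term in edgeR, for 662 genes. The 6 most positive log2 differences by the naming rule were Gbp10 (log2 fold change 1.53), Ifng (log2 fold change 1.46), Dtx4 (log2 fold change 1.23), Pou6f1 (log2 fold change 1.16), Cd274 (log2 fold change 1.13) and Spo11 (log2 fold change 1.08), and the 6 most negative were Pbk (log2 fold change -1.63), Ankle1 (log2 fold change -1.50), Espl1 (log2 fold change -1.45), Sapcd2 (log2 fold change -1.38), Troap (log2 fold change -1.38) and Cdc25c (log2 fold change -1.37). Against pH 6.6 the same test passed for 8433 genes. The largest log2 differences by the same rule were positive for Cdc6 (log2 fold change 5.04), Lif (log2 fold change 4.72), Uhrf1 (log2 fold change 4.65), Pclaf (log2 fold change 4.60), Rrm2 (log2 fold change 4.34) and Mcm10 (log2 fold change 4.25) and negative for Il7r (log2 fold change -4.32), Slc26a11 (log2 fold change -3.80), Tbc1d4 (log2 fold change -3.74), Arl5c (log2 fold change -3.58), Mirt1 (log2 fold change -3.41) and Tcf7 (log2 fold change -3.20). The naming rule asked for the same sign of difference in 5 of 5 replicates, so that agreement is no separate support.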

How the results depend on the processing

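The count of 10667 genes changed by IL-2 at pH 7 was 10169 to 10506 when replicates were left out in turn and 10267 with no replicate block, and 4920 when a log2 difference of at least 1 was required. The comparison with pH 7.4 moved more: 662 genes with the replicate block became 177 with no replicate block, and 98 to 711 when replicates were left out in turn. It was 326 with all detected genes tested, 1016 by DESeq2, 1632 with only the groups compared and 120 with a log2 difference of at least 1. The comparison with pH 6.6 (8433 genes) gave 7604 to 8185, 7803 with no replicate block and 3745 at a log2 difference of at least 1. The causes were not tested.

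Of 146 named genes 134 kept their direction in every alternative run and 123 also their side of the threshold. The 12 that reversed did not pass in the first place. With total count alone the log2 fold change was -0.068 for Socs3, -0.11 for Il4ra, -0.028 for Srgn, -0.014 for Tnfsf8, -0.000966 for Bax, -0.078 for Gbp3 and -0.12 for Lamp1. With all detected genes tested it was 0.00586 for Lag3, 0.00775 for Tnfrsf18 and 0.016 for Atf4. With at least 10 counts in each library it was -0.031 for Il4ra and -0.035 for Lamp1. By DESeq2 it was 0.0051 for Slc43a1 and -0.0011 for Lamp1. With only the groups compared it was 0.0090 for Atf4. By relative log expression size factors it was -0.00118 for Lamp1. When replicates were left out in turn it was -0.011 to 0.076 for Socs3, -0.099 to 0.096 for Il4ra, -0.61 to 0.30 for Slc43a1, -0.046 to 0.15 for Srgn, -0.087 to 0.011 for Lag3, -0.099 to 0.091 for Tnfrsf18, -0.00689 to 0.21 for Bax, -0.15 to 0.13 for Gbp3, -0.10 to 0.041 for Lamp1, -0.073 to 0.015 for Atf4 and -0.12 to 0.028 for mt-Co1. The limit of depth lay with low genes such as Il24, Il10 and Slc7a11, whose ratios rest on 1 or 2 reads without IL-2.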

Other observations

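Several members of the lists outside the naming rule had changes that the report does not give, and those below were chosen after their values were seen. All values are fitted log2 fold changes with IL-2 at pH 7 that passed the edgeR test adjusted over 13819 genes. The cell cycle kinases Cdk4 (log2 fold change 1.85) and Cdk6 (log2 fold change 2.09) were higher. Both chains of the receptor for type I interferons, Ifnar1 (log2 fold change -0.87) and Ifnar2 (log2 fold change -0.73), and the ligand-binding chain for interferon-gamma, Ifngr1 (log2 fold change -1.25), were lower, although most interferon-stimulated genes listed were higher. The effector transcription factors Tbx21, which encodes T-bet (log2 fold change 1.44), and Id2 (log2 fold change 1.27) were higher, whereas Runx1 (log2 fold change -0.82) and Gata3 (log2 fold change -0.52) were lower.

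Among secreted factors, Csf2, the gene of the growth factor GM-CSF (2.48), Tnf (log2 fold change 2.29) and Lta, its relative (log2 fold change 2.69), were higher, and Ltb, which pairs with Lta on the cell surface (log2 fold change -1.59), was lower. Of the inhibitory receptors, Pdcd1, the gene of PD-1 (log2 fold change -1.76), fell together with Ctla4, while Btla (log2 fold change 0.73) and Cd160 (log2 fold change 1.10), which share a ligand, were higher. The autophagy adaptor Sqstm1 (log2 fold change -1.55) and the autophagosome protein gene Map1lc3b (log2 fold change -1.51) were lower, with Ulk1, the kinase that starts autophagy (log2 fold change -1.24).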
